A study of Mus musculus with 2 samples.

Results

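Brown fibro-adipogenic progenitor-like cells (bFAPLs) are 279 cells of the brown library, which the study's table of barcodes and clusters labels with that name. They make up 279 of the 1999 brown precursor cells with a label in the copy of that table used here (14%, 12.5 to 15.6%). The full table lists 5958 brown precursor cells, so the 279 are only some of the bFAPLs, and the labels of the remaining cells were not used here. The other 1720 labelled cells fall into the brown committed adipogenic precursors (bCAPs, 296 cells) and the brown adipocyte precursor clusters bAPC 1 (581 cells), bAPC 2 (415), bAPC 3 (171), bAPC 4 (142) and bAPC 5 (115). The labels were made by clustering the same counts, so the differences between bFAPLs and the other brown clusters given here describe the cluster and test nothing about it.

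The study grew the stromal vascular fraction of adipose depots in culture and profiled it with droplet-based 10x Genomics 3-prime RNA sequencing, to ask how far cultured precursors keep the variety of progenitors found in the tissue. The depots came from newborn C57/BL6J mice of both sexes, at postnatal day 0 by the labels and a day later by the study's methods. Subcutaneous fat, digested with collagenase for 35 minutes, gave the white library, and interscapular fat, digested for 50 minutes, the brown library. Both cultures were kept in medium with 20% serum, reached confluency in 4 days and were lifted with trypsin for 3 minutes, and the labels name neither a treatment nor a sort. There is 1 library per depot and the labels tie no cell to a pup, so no comparison below has a replicate, and no p-value, standard error or test was computed. The brown library holds 7009 captured cells and 205551320 unique molecular identifiers (UMIs), with a median of 26411 per cell. The bFAPLs had a median of 25194 UMIs (12225 to 50009) and 5637 genes per cell, against 27253 UMIs and 5811.5 genes in the other labelled brown cells. Of the 7009 brown and 5261 white barcodes, 9 occur in both libraries, and 1 of these belongs to a bFAPL.

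Fibro-adipogenic progenitors (FAPs) are mesenchymal cells, best known from skeletal muscle, that can lay down connective tissue or become adipocytes. They carry Pdgfra, secrete collagens and proteoglycans, and keep low levels of Pparg, the nuclear receptor that drives adipocyte differentiation. Interscapular brown fat is a thermogenic depot whose mature adipocytes burn fuel through Ucp1, and its precursors lie close to blood vessels, which are wrapped by pericytes and smooth muscle cells and underlain by a basement membrane of type IV collagen and laminin.

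A gene's level in a cluster is its share of the UMIs summed over the cells of that cluster, given as counts per 1000000 UMIs (CPM). Ranges in parentheses are 95% intervals, Poisson for levels, conditional binomial for log2 ratios and Clopper-Pearson for shares of cells, and cover counting error only. The 279 bFAPLs hold 7537811 UMIs, so that a gene with no UMI in them lies under about 0.398 CPM (3 UMIs).

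All 6 genes given as markers of the cluster were highest in bFAPLs among the 7 brown clusters. The study named these genes from the same counts, so their levels describe the label and do not check it. Serpinb1a (ENSMUSG00000044734, chr13:32842092-32851185, minus strand), an intracellular inhibitor of neutrophil serine proteases, stood at 94.5 CPM (87.6 to 102) in bFAPLs, and from 5.48 CPM in bAPC 3 to 15.8 CPM in bCAPs in the other clusters. Cryab (ENSMUSG00000032060, chr9:50751325-50756636, plus strand), the small heat shock protein alpha B-crystallin, reached 445 CPM (431 to 461), and from 57.2 CPM in bAPC 1 to 113 CPM in bAPC 2 elsewhere. The levels of these genes set bFAPLs apart from each of the other brown clusters by more than counting error, as the plot of marker levels shows. Nr2f2 (ENSMUSG00000030551, chr7:70351944-70366735, minus strand), the nuclear receptor COUP-TFII, had 193 CPM (183 to 203), against 39.1 CPM in bAPC 4 to 80.9 CPM in bCAPs. Meox2 (ENSMUSG00000036144, chr12:37108540-37179534, plus strand), a homeobox factor of mesoderm and vessels, had 97.9 CPM (91.0 to 105) and was the marker least particular to the cluster. It reached 74.3 CPM (65.2 to 84.4) in bAPC 5, only 0.40 (log2) below bFAPLs, while the remaining clusters lay between 9.01 and 16.9 CPM.

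**Figure D1:**
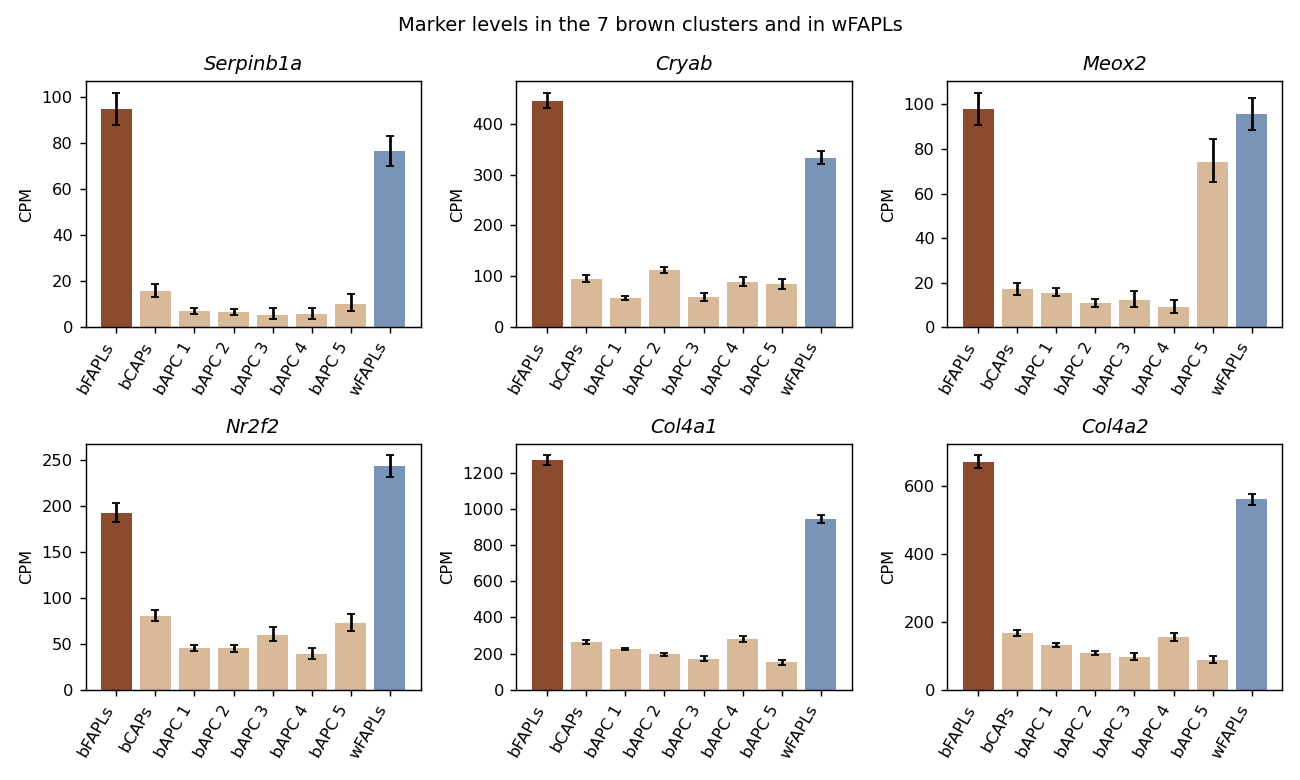
Level (CPM, vertical axes from 0) of the 6 marker genes in the 7 brown clusters and in the white fibro-adipogenic progenitor-like cells (wFAPLs, blue), with 95% Poisson intervals as error bars. Dark bars are bFAPLs, which stand above the other brown clusters in every panel. The nearest is bAPC 5 for Meox2, at 74.3 against 97.9 CPM.

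The chains of the main type IV collagen, the network-forming collagen of basement membranes, are encoded by Col4a1 and Col4a2. Col4a1 (ENSMUSG00000031502, chr8:11198423-11312826, minus strand) reached 1269 CPM (1244 to 1295) in bFAPLs and from 152 CPM in bAPC 5 to 282 CPM in bAPC 4 in the others. Col4a2 (ENSMUSG00000031503, chr8:11312805-11449287, plus strand) reached 672 CPM (654 to 691), against 88.3 CPM in bAPC 5 to 167 CPM in bCAPs. The genes lie head to head on chromosome 8 and start within each other's promoter window, and their log2 ratios of bFAPLs over the other labelled brown cells were close, 2.52 and 2.39. Because both are markers with like ratios, the windows around their starts are shown, from 250 bases before to 50 bases after each start, 5′ to 3′ on the strand of the gene. They are chr8:11312777-11313076 (minus strand) for Col4a1 and chr8:11312555-11312854 (plus strand) for Col4a2 in GRCm38.p6, with sequences from RefSeq. Capitals mark the 78 bases, chr8:11312777-11312854, that both windows share, read from opposite strands.
Col4a1: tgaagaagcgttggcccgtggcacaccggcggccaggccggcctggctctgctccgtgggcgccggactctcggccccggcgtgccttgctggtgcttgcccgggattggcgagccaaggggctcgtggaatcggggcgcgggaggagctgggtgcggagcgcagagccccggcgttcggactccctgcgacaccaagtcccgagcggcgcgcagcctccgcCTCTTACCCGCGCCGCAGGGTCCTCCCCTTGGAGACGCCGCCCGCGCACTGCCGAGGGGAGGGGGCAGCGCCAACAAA
Col4a2: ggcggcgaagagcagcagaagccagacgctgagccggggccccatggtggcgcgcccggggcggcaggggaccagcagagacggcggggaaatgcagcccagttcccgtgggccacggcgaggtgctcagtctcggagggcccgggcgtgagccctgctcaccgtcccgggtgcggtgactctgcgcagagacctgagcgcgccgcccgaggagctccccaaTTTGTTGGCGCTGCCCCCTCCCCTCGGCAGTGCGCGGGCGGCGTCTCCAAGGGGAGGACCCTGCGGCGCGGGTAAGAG
Of 32851 such windows, 3547 (10.8%) overlap a window of another gene on the opposite strand. The letters CCAAT, searched on both strands, occur in 1 place in each window, outside the shared bases for Col4a1 and reaching 1 base into them for Col4a2, and 37.4% of all windows hold them. The letters GGGCGG occur in 1 place in the Col4a1 window and in 3 in the Col4a2 window, 1 of them within the shared bases, against 35.7% of all windows with a match. These matches describe the windows and say nothing of what binds there. Of the 6 markers, 4 have a window in the table used.

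The markers were also counted cell by cell, after each cell had been thinned to 10000 UMIs. At least 5 of the 6 were found in 162 of 279 bFAPLs (58.1%, 52 to 63.9%) and in 51 of 1720 other brown cells (2.97%, 2.22 to 3.88%). At most 2 were found in 8 bFAPLs (2.87%) and in 1049 of the others (61.0%). The distributions overlap in between, where 36 bFAPLs and 425 other cells had 3 markers, and 73 and 195 had 4. Among wFAPLs, the cluster of the same type that the study defined separately in the white library, 130 of 256 cells (50.8%, 44.5 to 57.1%) had at least 5.

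**Figure D2:**
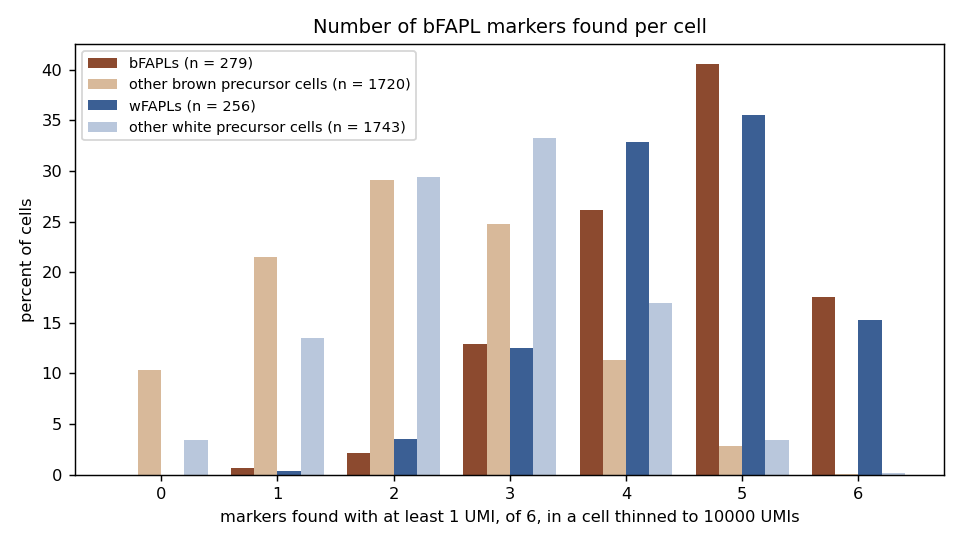
Percent of cells (vertical axis) by the number of the 6 markers found with at least 1 UMI (horizontal axis) in cells thinned to 10000 UMIs, for bFAPLs, the other labelled brown cells, wFAPLs and the other labelled white cells. The bFAPLs and wFAPLs peak at 5 markers, the other brown cells at 2 and the other white cells at 3.

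The 22 labelled glial cells of the brown library, with a median of 17174.5 UMIs, are the background set for shares of cells. In cells thinned to 10000 UMIs, Serpinb1a was found in 40.5% of bFAPLs, 6.69% of the other brown cells and none of the glia, which allows up to 15.4% by the Clopper-Pearson interval. Before thinning these shares were 59.9%, 14.9% and 0%. Meox2 was found in 56.3% of bFAPLs and 12.4% of the others after thinning (82.4% and 24.9% before), and again in no glial cell. The other 4 markers were not low in glia: Cryab stood at 1229 CPM there, Col4a1 at 594, Col4a2 at 437 and Nr2f2 at 170.1. Glia thus had 3 or 4 of the 6 markers per thinned cell, and none of the 22 had 5.

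The defining markers of other cell types were at or near 0 in bFAPLs, although each list summed slightly higher in them than in the other brown cells. The 10 endothelial markers summed to 30.6 CPM against 23.3 in the other brown cells, with Egfl7 the most abundant (14.5 CPM, a log2 ratio of 0.04) and Tie1 and Cldn5 at 0. Of the endothelial genes with few UMIs, Cdh5 (3.05 against 0.498 CPM), Erg (3.45 against 1.05), Emcn, Esam and Pecam1 were at least 2-fold higher in bFAPLs and Kdr at least 2-fold lower. The 10 myeloid markers summed to 16.2 CPM in bFAPLs and 13.7 in the others, led by Lyz2, with Adgre1 and C1qa at 0, against 14749.9 in the 27 labelled myeloid cells. The 10 glial markers summed to 29.7 CPM in bFAPLs, of which S100b gave 23.1, and 22.5 in the others, against 2444 in glia. Sox10, the factor that defines glia, had 2 UMIs in all bFAPLs. The 10 myogenic markers summed to 94.3 CPM in bFAPLs, of which Megf10 gave 84.8, and 70.0 in the others, with Myod1, Myf5, Pax7 and Ckm at 0. The 8 mesothelial markers summed to 8.36 CPM against 5.83 in the other brown cells, led by Krt19, with Wt1 and Msln at 0. The part of such cells in the results was not tested. None of the 15 nearest labelled neighbours of any bFAPL, in a space of 10 principal components with the cycle scores regressed out, was a glial, myeloid or myoblast cell. Of these neighbours 78.8% were bFAPLs, which are 13.6% of all labelled cells, and the next labels were bAPC 1 (6.09%), bAPC 2 (5.76%) and bCAPs (4.95%). Glial, myeloid and myoblast cells are only 1.07%, 1.31% and 0.389% of the labelled cells. The labels were made by clustering the same counts, so these shares of neighbours describe the labels and test nothing. No cell carries an endothelial, mesothelial or pericyte label, so none could be counted as such a neighbour.

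The labels come from clustering after the cell cycle had been regressed out, so that even shares of phases are in part built into them. By scored phase, 67.4% of bFAPLs were in G1 (61.5 to 72.9%), 15.4% in S and 17.2% in G2M, against 65.3%, 16.6% and 18.1% of the others. Of the bFAPLs, 223 were female and 47 male by Xist and Y-linked transcripts, a male share of 16.8% (12.6 to 21.8%) against 13.1% in the others. The marker ratios had the same sign in each of these subsets. The log2 ratio of bFAPLs over the other brown cells was 3.55 in G1, 4.06 in S and 3.08 in G2M for Serpinb1a, and 3.50 in female and 3.49 in male cells. For Col4a1 it was 2.55, 2.38 and 2.57 by phase and 2.54 and 2.44 by sex.

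Across 3639 genes with at least 50 CPM in bFAPLs or in the other brown cells, 58 (1.59%) were at least 2-fold higher in bFAPLs and 26 (0.714%) at least 2-fold lower. Of the 58, 57 ranked 1 among the 7 clusters, a rank largely built in by picking genes on their ratio over the same clusters. The exception, Crim1, a bone morphogenetic protein binding membrane protein, was higher in bAPC 4. For 19 genes (0.522%) the level was at least 2-fold above even the highest other brown cluster. Beside Rgs5 and 5 of the markers these were Fhl1, Col14a1, Ccn5, Angpt2, Lxn, Cygb, Ly6a, Rasl11a, Adamts2, Mfap5, Epha3, Id4 and Gpr39. Of the 26 lower genes, 24 were lowest in bFAPLs, the exceptions being Pparg and Dlk1, and 6 (0.165%) lay at least 2-fold below the lowest other cluster. The rank of the lower genes, too, is largely built in. Genes can pass the filter of 50 CPM through their level in bFAPLs alone or in the other cells alone, which favours higher and lower ones.

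The 20 genes with the largest ratio include the 6 markers. Rgs5, a regulator of G-protein signalling and a pericyte marker, had the largest log2 ratio, 3.70 (3.50 to 3.91), with 76.8 CPM (70.7 to 83.3) in bFAPLs and from 3.41 CPM in bAPC 5 to 8.53 CPM in bCAPs elsewhere. Angpt2, an angiopoietin that loosens the contact of vessels with their mural cells, stood at 75.8 CPM (69.7 to 82.2) against 4.65 CPM in bAPC 5 to 26.0 CPM in bCAPs, a log2 ratio of 2.31 (2.16 to 2.47). Fhl1, a LIM protein of muscle and stressed cells, followed Serpinb1a in the ranking with 110.4 CPM (103 to 118) against 9.90 CPM in bAPC 1 to 31.0 CPM in bAPC 5 and a ratio of 2.84 (2.70 to 2.98). None of these 3 genes exceeded 31.0 CPM in another brown cluster. Pde3a, a phosphodiesterase of smooth muscle and heart, and Ror1, a receptor for Wnt5a, were shared with bCAPs instead: Pde3a stood at 173 CPM in bFAPLs and 119 in bCAPs, and Ror1 at 499 and 261. Crip2, a LIM domain protein of vascular smooth muscle, and Emb, the adhesion molecule embigin, were likewise less than 2-fold above bCAPs.

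The remaining 7 of the 20 genes were as follows. Col14a1, a fibril-associated collagen, stood at 182 CPM (173 to 192) against 23.6 CPM in bAPC 4 to 56.4 CPM in bAPC 5, a log2 ratio of 2.11 (2.02 to 2.21). Ccn5, a secreted matricellular protein, reached 274 CPM (262 to 286) and a ratio of 2.03 (1.95 to 2.11). Timp3, a matrix-bound inhibitor of metalloproteinases, was abundant at 1053 CPM (1029.8 to 1076) and had a ratio of 1.62 (1.59 to 1.66), but bAPC 4 held 632 CPM of it. Lxn, the carboxypeptidase inhibitor latexin, had a ratio of 2.06 (1.99 to 2.14). The ephrin receptor Epha3 (1.71), the zinc-sensing receptor Gpr39 (2.09) and the small GTPase Rasl11a (1.64) complete the 20 genes. Of these 7 genes, all but Timp3 were at least 2-fold above every other brown cluster.

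**Figure D3:**
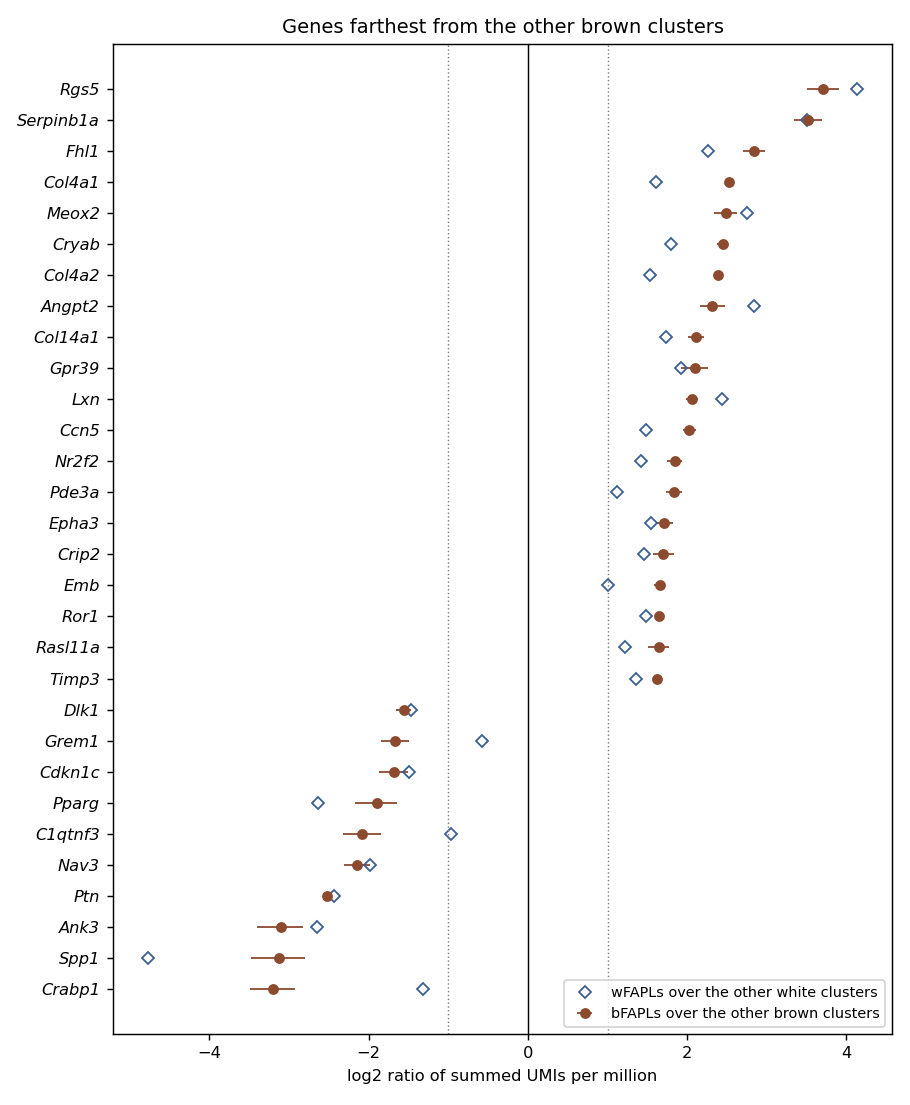
Log2 ratio (horizontal axis) of bFAPLs over the other labelled brown cells for the 20 genes with the largest and the 10 with the smallest ratio (filled circles, 95% counting intervals), and of wFAPLs over the other labelled white cells for the same genes (open diamonds). The other white cells include the differentiating wFAPLs. Dotted lines mark 2-fold. All 20 upper genes lie at or beyond 1 in both depots, and the lower genes run from -1.56 for Dlk1 to -3.20 for Crabp1 in bFAPLs.

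The 10 genes farthest below the other brown cells were Crabp1, Spp1, Ank3, Ptn, Nav3, C1qtnf3, Pparg, Cdkn1c, Grem1 and Dlk1. Ptn, the heparin-binding growth factor pleiotrophin, was the most abundant, with 486 CPM (470.5 to 502) in bFAPLs against 1773 CPM in bCAPs to 3778 CPM in bAPC 5, a log2 ratio of -2.52 (-2.57 to -2.47). Crabp1, a cytosolic retinoic acid binding protein, stood at 14.6 CPM (12.0 to 17.6) against 71.8 CPM in bCAPs to 179 CPM in bAPC 1, a ratio of -3.20 (-3.49 to -2.93). Ank3, which anchors membrane proteins to the cytoskeleton, stood at 13.1 CPM against 73.6 CPM in bAPC 2 to 155 CPM in bAPC 5. These 3 genes were lower in bFAPLs than in every other brown cluster by at least 2-fold, as were Spp1, which encodes the matrix phosphoprotein osteopontin (10.1 against 31.0 CPM in bAPC 5 to 121 CPM in bAPC 3), Nav3, a microtubule-binding protein, and C1qtnf3, an adipokine. Pparg had 17.0 CPM (14.2 to 20.2) in bFAPLs and a ratio of -1.90 (-2.17 to -1.65), but was lower still in bAPC 5, at 12.4 CPM. Dlk1, the preadipocyte factor that holds back adipogenesis, had 144 CPM (136 to 153) in bFAPLs, close to 136 CPM in bCAPs and far from 1021 in bAPC 5. Grem1, an antagonist of bone morphogenetic proteins (BMPs), stood at 38.7 CPM against 76.6 CPM in bCAPs to 161 CPM in bAPC 1, and Cdkn1c, an inhibitor of the cell cycle, at 34.6 against 69.1 CPM in bAPC 4 to 177 CPM in bAPC 5.

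Gene lists were read over genes with at least 10 CPM across all labelled brown cells, of which 95 of 8790 (1.08%) were at least 2-fold higher and 93 (1.06%) at least 2-fold lower in bFAPLs, with a median log2 ratio of -0.0036. Among interstitial progenitor and FAP markers 12 were measured, with 5 at least 2-fold higher, 0 lower and a median of 0.80. Ly6a, which encodes the stem cell antigen Sca-1, stood at 81.7 CPM (75.4 to 88.4) against 16.1 CPM in bCAPs to 35.7 CPM in bAPC 2, and Lum, the collagen-binding proteoglycan lumican, at 152 CPM (143 to 161) against 33.3 CPM in bAPC 3 to 79.8 CPM in bCAPs. Igfbp6 (1.40), the microfibril protein Mfap5 (1.29) and the odd-skipped factor Osr1 (1.29), a transcription factor of embryonic FAPs, were the other 3. The list was not uniformly high: 8 of the 12 lay above 0, and Sema3c, Hic1, Gsn and Pdgfra did not. Pdgfra, which defines FAPs in muscle, stood at 78.5 CPM (72.3 to 85.1) in bFAPLs and from 42.7 CPM in bAPC 4 to 112 CPM in bCAPs in the others, so that bFAPLs lay inside the range of the other clusters. Dpp4, a marker of early interstitial progenitors, and Tcf21 had 0 UMIs in bFAPLs. Their levels in the other clusters are not given, so this is not read as particular to bFAPLs. Of 6 measured genes that the study names as FAP genes, 2 were at least 2-fold higher and all 6 were above 0 (median 0.78). In male cells alone 1 of these 6 genes and 1 of the 12 interstitial progenitor and FAP markers were at least 2-fold lower. The study picked these genes from wFAPLs and published datasets, and named bFAPLs for their likeness to wFAPLs.

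Of 16 measured basement membrane genes 2 were at least 2-fold higher, Col4a1 and Col4a2, 0 were lower and the median was 0.14. In male cells alone 1 of the 16 was at least 2-fold lower. With genes of at least 10 CPM in either sum 4 of 18 were higher. Genes can pass that filter through their level in bFAPLs alone, which favours higher ones. The laminin chains ran both ways, from 0.76 for Lamb2 to -0.68 for Lama4, with the perlecan gene Hspg2 at 0.01 and Col15a1 lowest at -0.87. Sparc, the most abundant member, stood at 5744 CPM in bFAPLs and 4509 in the others (0.35).

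In the interstitial matrix Col14a1 and Mfap5 were the 2 of 30 measured members past 2-fold (median -0.08), and 0 were lower. At least 2-fold lower were 3 members in male cells, 2 against bCAPs, and 1 with the median ratio set to 0, thinned cells, G1 cells, clusters weighted equally or carried-over labels. Some fibril and fibre genes lay above the other brown cells within 2-fold. Col3a1, a fibrillar collagen, stood at 2938 against 1698 CPM (0.79), Eln, which encodes elastin, at 224 against 136 (0.72) and Fn1, fibronectin, at 1899 against 1221 (0.64). The microfibrillar type VI collagens lay below, with Col6a1 at -0.64, Col6a2 at -0.52 and Col6a3 at -0.74, and the adhesion-modulating glycoprotein Tnc was lowest at -0.99. Among small leucine-rich proteoglycans, 1 of 7 measured genes was at least 2-fold higher, Lum, and 1 lower, Aspn, which stood at 191 against 416 CPM (-1.12). Against bCAPs 0 of the 7 were at least 2-fold higher and 2 lower. Of 17 genes that process or crosslink collagen, the procollagen peptidase Adamts2 (302 against 119.7 CPM, 1.33) and the lysyl hydroxylase Plod2 (222 against 96.7, 1.20) were past 2-fold. The other 15, the chaperone Serpinh1 and the oxidase Lox among them, lay within it. Of 18 matrix proteases and their inhibitors, Timp3 and the aggrecanase Adamts5 (1.15) were at least 2-fold higher and 0 lower. In male cells or with the other clusters weighted equally 1 was higher. At least 2-fold lower were 2 members in G1 cells and 2 in male cells. That count was 1 with the median ratio set to 0, thinned cells, cells or clusters weighted equally, or against bCAPs.

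**Figure D4:**
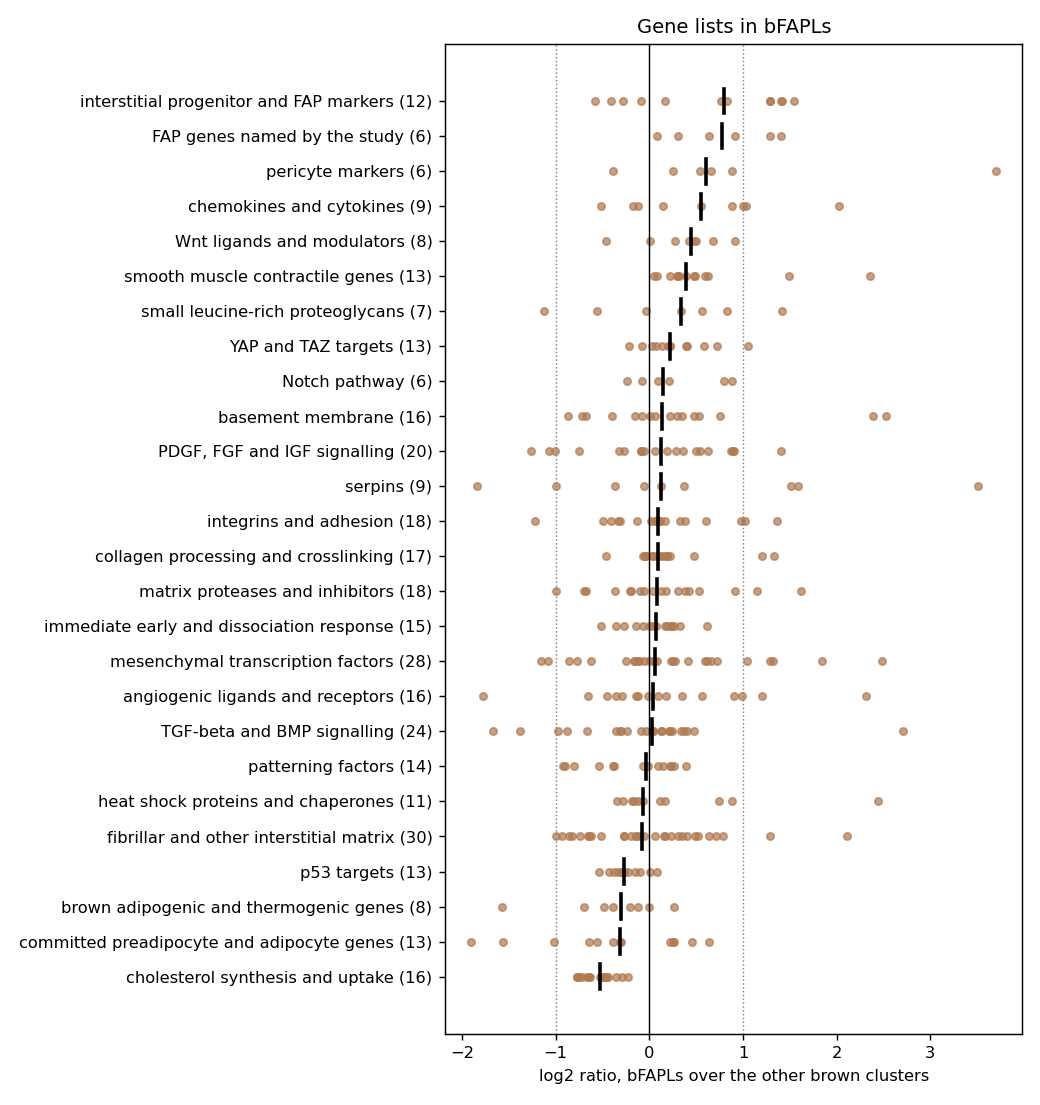
Log2 ratio (horizontal axis) of bFAPLs over the other labelled brown cells for each measured member (points) of the gene lists with at least 5 measured members, with the median of each list as a black bar and the number measured in parentheses. Dotted lines mark 2-fold, and the list of the 6 markers is left out. Of the lists plotted, interstitial progenitor and FAP markers have the highest median, 0.80, and cholesterol synthesis and uptake the lowest, -0.52.

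Most mural cell genes measured lay above the other brown cells, to different degrees. Of the 13 measured smooth muscle genes all 13 lay above 0 (median 0.39) and 2 were at least 2-fold higher. Myh11, the heavy chain of smooth muscle myosin, stood at 48.4 CPM (43.6 to 53.7) against 3.73 CPM in bAPC 1 to 26.4 CPM in bAPC 4, a log2 ratio of 2.36 (2.16 to 2.56), and Actg2, an enteric smooth muscle actin, at 519 against 122 CPM in bCAPs to 271 CPM in bAPC 4. Acta2, the most abundant member and a gene of myofibroblasts in culture, was only 0.30 higher, with 5499.9 CPM in bFAPLs and 5732 in bAPC 4. The list summed to 14208 CPM in bFAPLs and 15718 in bAPC 4, which was thus higher. Of 6 measured pericyte markers 1, Rgs5, was past 2-fold (median 0.60), and the list summed to 473 CPM against 208 to 248 in the other clusters. Rgs4 was the measured member below 0, with 10.9 against 14.3 CPM (-0.39 (-0.74 to -0.06)), and 1 member was at least 2-fold lower when cells with at least 5 Rgs5 UMIs were left out. In male cells alone 3 members were at least 2-fold higher. With genes of at least 10 CPM in either sum 5 of 10 were, but this filter, too, lets genes in through their level in bFAPLs alone. Notch3, the Notch receptor of mural cells, stood at 43.0 against 23.4 CPM, and Vtn, an abundant pericyte gene in tissue, had 0 UMIs. Whether mural cells among the bFAPLs take part in these values was not tested.

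Rgs5 was unevenly spread among bFAPLs. Of the 279 cells, 207 (74.2%) had no UMI of it, while 33 (11.8%, 8.28 to 16.2%) had at least 5, up to 44, and these 33 held 508 of the 579 Rgs5 UMIs (87.7%). Among the other 1720 brown cells 12 (0.698%) had at least 5, and 2 of the 22 glial cells had at least 1. The 33 cells, singled out after these values were seen, were not deeper than the other 246 bFAPLs, with medians of 22064 and 25418 UMIs. Across 3720 genes at 50 CPM or more, 25 (0.672%) were at least 2-fold higher in them and 29 (0.78%) at least 2-fold lower. After Rgs5 itself the largest log2 ratios were those of Ntrk3, a neurotrophin receptor kinase, with 3.71 (3.37 to 4.05) and a level of 229.6 against 17.5 CPM, Rgs4, a relative of Rgs5 that is also on the pericyte list, with 3.10 (2.44 to 3.76), the cadherin Cdh18 with 2.08 (1.52 to 2.62) and Gucy1a1, a subunit of the nitric oxide receptor of smooth muscle, with 1.93 (1.43 to 2.42). The Wnt agonist Rspo2 (206 against 57.0 CPM), the endothelin receptor Ednra (81.6 against 28.7 CPM) and Angpt2 (177 against 62.7 CPM) were also higher. Lower in the 33 cells were the chemokine genes Cxcl5 (12.8 against 53.1 CPM) and Cxcl12 (92.1 against 300.5 CPM), Ly6a (28.0 against 88.6 CPM), Dlk1 (40.8 against 158 CPM) and the lipase gene Lpl (119 against 307 CPM). Both sets of cells held the markers. Serpinb1a stood at 88.6 against 95.2 CPM, Cryab at 466 against 443 CPM and Meox2 at 90.9 against 98.8 CPM, while Col4a1 was 0.48 (0.40 to 0.56) and Col4a2 0.56 (0.45 to 0.67) higher on the log2 scale in the 33 cells. For Nr2f2 the difference was 0.16 (-0.07 to 0.39). Without Rgs5 the pericyte list summed to 480.1 CPM there and 385 in the remaining bFAPLs. Beside Rgs4, the channel subunit genes Kcnj8 (26.8 against 15.9 CPM) and Abcc9 (50.1 against 32.5 CPM) and the receptor gene Pdgfrb (240.0 against 198 CPM) were higher in the 33 cells beyond counting error. For Notch3, Cspg4 and Mcam the interval of the log2 ratio included 0, and Anpep, with 5 UMIs in the 33 cells, was lower (5.83 against 15.0 CPM). Cox4i2 had 0 UMIs in the 33 cells against 5.69 CPM in the remaining bFAPLs, lower beyond counting error. Ndufa4l2 was not separated (6.99 against 11.4 CPM), and Higd1b and Vtn had 0 UMIs there. When all cells with at least 5 Rgs5 UMIs were left out, 59 genes were at least 2-fold higher and 24 at least 2-fold lower in bFAPLs, and 53 of the 58 and 23 of the 26 genes were still among them.

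Of 13 measured committed preadipocyte and adipocyte genes 5 lay above 0 and 3 were at least 2-fold lower, Pparg, Dlk1 and the lipid droplet gene Plin2 (47.8 against 96.5 CPM), and 0 higher (median -0.31). Cebpa, the partner factor of Pparg, went the other way within 2-fold, with 54.8 CPM (49.6 to 60.3) against 35.3 CPM in the other cells and 61.2 in bCAPs. Adipoq, Plin1, Cidec and Cd36, genes of mature adipocytes, had 0 UMIs. Of 8 measured brown adipogenic genes 1 was at least 2-fold lower, Esrrg, an estrogen-related receptor (-1.57), and 0 higher. Ebf2, an early factor of the brown lineage, stood at 165 CPM in bFAPLs, 321 in bCAPs and 86.2 in bAPC 2, and Ucp1, Dio2 and Cox8b had 0 UMIs. No level in the other clusters is set beside the zeros in this paragraph, so they are not read as particular to bFAPLs.

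The genes of cholesterol synthesis and uptake all lay below the other brown cells, each by less than 2-fold. None of the 16 measured members was 2-fold lower, but 0 of 16 lay above 0, with the lowest ratio, -0.78, for Mvd, a decarboxylase of the mevalonate pathway, and a median of -0.52. Hmgcs1, an early enzyme of the same pathway, stood at 154 CPM (145 to 163) in bFAPLs against 191 CPM in bAPC 2 to 290.2 CPM in bAPC 5, and Fdps, which makes farnesyl pyrophosphate and was the most abundant member, lay -0.48 from the other brown cells on the log2 scale. The list summed to 1250.4 CPM in bFAPLs, below each of the other clusters, which ran from 1676 to 2059.6. In the white library it summed to 1492 CPM in wFAPLs and 1907 in the other white precursor cells.

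Among 28 measured mesenchymal transcription factors 5 were at least 2-fold higher and 2 lower (median 0.07). Beside Meox2, Nr2f2 and Osr1 the higher ones were Foxs1 (37.3 against 14.9 CPM, 1.33), a forkhead factor of pericytes, and Tbx18 (26.1 against 12.7, 1.04), a T-box factor of mural cells. The lower ones were the homeobox gene Prrx2 (57.4 against 128, -1.16) and Osr2 (-1.09). With cells weighted equally, thinned cells or G1 cells 1 factor was at least 2-fold lower, and with carried-over labels 3 were higher. The Twist genes and Snai2, regulators of mesenchymal state, were lower within 2-fold (Twist2 -0.85, Snai2 -0.77 and Twist1 -0.62). Of 14 measured patterning factors none was past 2-fold, with Hoxa5 highest (0.40) and Irx5 lowest (-0.92). At least 2-fold lower were 1 in female cells, 2 in male cells, 1 with carried-over labels and 2 without the cells of at least 5 Rgs5 UMIs, and against bCAPs 1 was higher.

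Secreted factors and their receptors differed gene by gene. In the TGF-beta and BMP list 1 of 24 measured genes was at least 2-fold higher, the ligand Bmp4, with 43.6 CPM (39.1 to 48.6) against 1.02 CPM in bAPC 1 to 21.0 CPM in bCAPs and a log2 ratio of 2.71 (2.49 to 2.93). In male cells alone no member of the list was 2-fold higher. Grem1, which binds and blocks Bmp4, and Ltbp1, which stores latent TGF-beta in the matrix, were the 2 lower ones, and the antagonist Bmper lay just within 2-fold at -0.97. In the list of PDGF, FGF and IGF signalling 1 of 20 was higher, Igfbp6, and 3 were lower: Pdgfd (-1.27), Igf1 (-1.07) and Igf2 (-1.01). Members above 0 within 2-fold included the ligand Pdgfa (0.91) and the binding protein genes Igfbp4 (0.89), Igfbp3 (0.87) and Igfbp7 (0.63). Of 16 angiogenic genes Angpt2 and Vegfd (206 against 89.5 CPM, 1.20) were higher and the sphingosine phosphate receptor S1pr3 (-1.78) lower. Of 9 chemokine and cytokine genes 3 were higher: Cxcl14 (32.8 against 8.06 CPM, 2.02), Cxcl16 (1.03) and Cxcl5 (1.00). With cells weighted equally, thinned cells or carried-over labels 1 of the 9 was at least 2-fold higher.

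The remaining lists add few genes. The marker Serpinb1a had company among 9 measured serpins. Serping1, the inhibitor of complement C1, stood at 91.1 CPM (84.5 to 98.2) against 13.2 CPM in bAPC 3 to 54.5 CPM in bCAPs. The granzyme inhibitor Serpinb9 (1.51) was also higher, while Serpina3g was lower (-1.84). In G1 cells, in male cells and against bCAPs 2 serpins were at least 2-fold lower. That count was also 2 with the median ratio set to 0, thinned cells, and cells or clusters weighted equally. Cryab, itself a marker, was the only 1 of 11 heat shock genes past 2-fold, though in male cells alone 2 were at least 2-fold higher. Its small heat shock relatives Hspb6 (0.88) and Hspb1 (0.75) lay above 0, and the abundant chaperones Hspa8 (-0.18) and Hsp90aa1 (-0.07) near it. Of 18 integrin and adhesion genes the collagen receptor subunit Itga1 (122 against 47.6 CPM, 1.36) and the laminin receptor subunit Itga6 (1.03) were higher and Alcam (-1.22) lower, but 1 was higher in G1 cells, in thinned cells and with cells or clusters weighted equally. Of 13 YAP and TAZ targets 1, Crim1, was higher (1.05), and none in G1 cells or with clusters weighted equally. No member of the Notch (6 measured), Wnt (8), immediate early (15), p53 target (13), adipogenesis regulatory cell (2) or tendon, cartilage and bone (3) lists was past 2-fold. None of the 10 complement and acute phase genes reached the level to be measured, and they summed to 43.2 CPM in bFAPLs and 26.9 in the others. The immediate early list had a median of 0.07.

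Set against bCAPs alone, the brown cluster on the way to adipocytes, 46 of 3734 genes (1.23%) were at least 2-fold higher in bFAPLs and 73 (1.96%) at least 2-fold lower. Of the 58 genes above the other brown cells as a whole, 32 were among the 46. The markers ranged from 1.25 for Nr2f2 to 2.58 for Serpinb1a, while Fabp4 stood at 91.4 CPM in bFAPLs and 302 in bCAPs and Hp, which encodes haptoglobin, at 54.7 and 308.

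The wFAPLs give the same measurement in a library that the brown labels did not use, although depot and library cannot be told apart. The remaining white precursors are here all labelled white clusters but wFAPLs. They include the differentiating wFAPLs, which the study describes as close to wFAPLs in their genes. Of the 58 genes at least 2-fold higher in bFAPLs, 57 were above 0 and 42 at least 2-fold higher in wFAPLs than in the remaining white precursors. Of all genes compared there, 1.72% were at least 2-fold higher, and the median log2 ratio was -0.0061. Both clusters were named by the study from their genes, so that their likeness in the markers is not independent evidence. Of the 26 lower genes 24 were below 0 and 16 at least 2-fold lower there, against 0.792% of all. The exceptions in sign were Piezo2 among the higher and Tgfbi and Abi3bp among the lower genes. Levels, too, were near each other: Serpinb1a stood at 94.5 CPM in bFAPLs and 76.3 in wFAPLs, Meox2 at 97.9 and 95.5, and Timp3 at 1053 and 1069. Rgs5 was lower in wFAPLs, with 28.3 against 76.8 CPM, but still 4.13 above the other white cells on the log2 scale, which had 1.61 CPM. Myh11 was higher in wFAPLs, with 102 against 48.4 CPM.

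Between bFAPLs and wFAPLs, 13 of 3729 genes (0.349%) were at least 2-fold higher in bFAPLs and 27 (0.724%) in wFAPLs. The 5 largest on the brown side were Hp with 54.7 against 5.86 CPM, the short-chain collagen Col8a1 with 250.3 against 32.9, Cp, which encodes the copper oxidase ceruloplasmin, with 61.2 against 9.76, Rspo2 with 74.0 against 22.6 and the secreted glycoprotein gene Cthrc1 with 215 against 66.1. Their log2 ratios ran from 3.22 (2.76 to 3.72) for Hp to 1.71 (1.46 to 1.97) for Rspo2, with Cthrc1 just under it. None of the 5 marked bFAPLs within the brown library, where their log2 ratios over the other brown cells lay between -0.64 and 0.68.

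On the white side stood 2 homeobox genes of posterior body position. Hoxc10 had 0 UMIs in bFAPLs, at most about 0.398 CPM, against 108 CPM in wFAPLs, so that it was at least 272-fold lower. Hoxc9 had 3.18 CPM (2.04 to 4.74) against 51.6, a log2 ratio of -4.02 (-4.68 to -3.42). The other 3 were the potassium channel gene Kcnma1 (14.1 against 76.4 CPM), the BMP family ligand Gdf10 (24.5 against 93.6) and Epha3 (146 against 484). These 3, unlike the Hox genes, were higher in bFAPLs than in the other brown cells as well, by 1.41, 2.33 and 1.71 on the log2 scale. Zic1, a zinc finger factor of the interscapular depot, showed the converse of Hoxc10, with 21.2 CPM (18.1 to 24.8) in bFAPLs and 0 UMIs in wFAPLs, at least 50.7-fold higher. Its level in the other brown cells was 27.7 CPM.

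**Figure D5:**
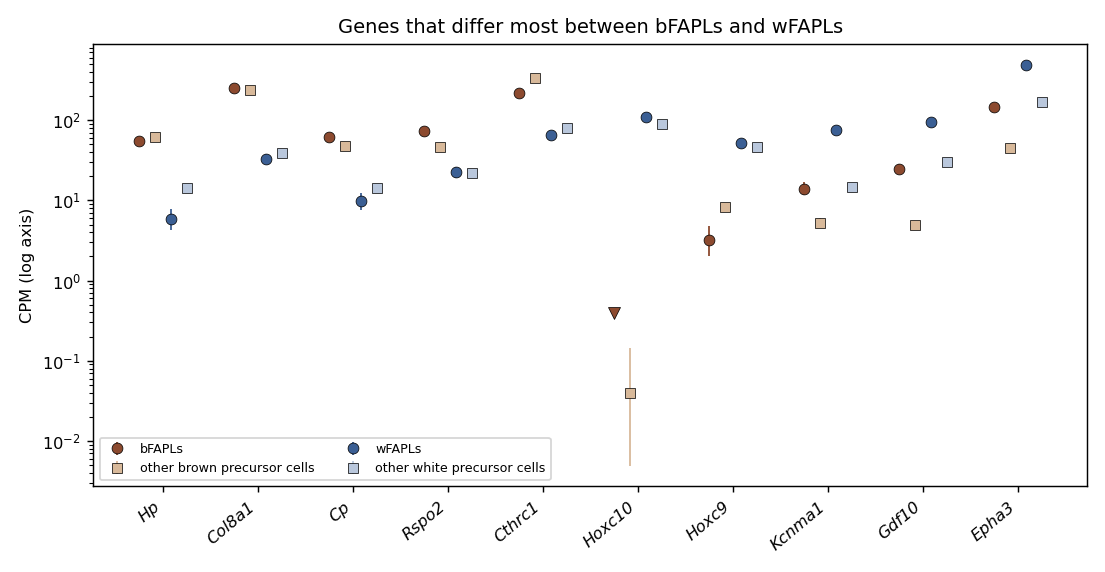
Level (CPM, log axis) of the 5 genes farthest above and the 5 farthest below wFAPLs, in bFAPLs, the other labelled brown cells, wFAPLs and the other labelled white cells, with 95% Poisson intervals. The triangle marks a count of 0, drawn at the level of 3 UMIs. For Hp, Col8a1, Hoxc10 and Hoxc9 both brown sets lie on the same side of both white sets.

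Variation from cell to cell within bFAPLs was measured on cells thinned to 10000 UMIs, as the squared coefficient of variation beyond Poisson counting. Over 1680 genes with a mean of at least 1 UMI its median was 0.102. The 10 most variable genes were the chemokines Ccl2 (7.50) and Ccl7 (3.42), the Wnt modulator Sfrp2 (5.64), the hyaluronidase Cemip (5.46), the activin antagonist Fst (3.84), Ccn2 (3.46), Col8a1 (3.16) and the cycle genes Ube2c (5.44), Top2a (3.77) and Cks2 (3.07). Ccl2 was found in 29.7% of thinned bFAPLs, and the 10% of cells with the most held 76.9% of its UMIs. In the other brown cells, too, the 10% of cells with the most Ccl2 held 72.8% of it. The markers lay below the 10 most variable genes and above the median of the 1680 genes. The value was 0.356 for Nr2f2, 0.415 for Col4a2, 0.431 for Meox2, 0.456 for Col4a1, 0.562 for Cryab and 2.94 for Serpinb1a. Rgs5, which lies under the mean of 1 UMI, had 8.20.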

How the data were processed

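Cells of 1 brown and 1 white library were analysed. The authors deposited counts of UMIs per gene and cell, without normalization, made with Cell Ranger 7.0.1 on mm10 per the submitters' processing notes. Cluster labels came from the study's source data, of which the copy used here holds 1999 barcodes per depot (of 5958 brown and 4331 white). All of these passed the study's limits (3900 to 7700 genes, 6000 to 60000 UMIs, 1.7 to 5% mitochondrial). Coordinates are from GENCODE vM21 (GRCm38), where 32158 of 32285 gene identifiers were found.

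Sums per cluster, CPM and intervals were computed with Python 3.11.15, numpy 2.4.6, scipy 1.17.1 and pandas 2.3.3, phases with scanpy 1.11.5 from 43 S and 54 G2M genes, and neighbours with scikit-learn 1.9.0 on 2000 variable genes. Named were the 6 markers, the 20 genes most above and 10 most below the other brown cells (50 CPM in either), 5 per direction against wFAPLs, the 10 most variable, and, per list, the members with the highest and lowest ratio (50 CPM in either) and the most abundant. Other list members, genes of the Rgs5-rich cells, Zic1 and the exceptions named in counts were chosen after their values were seen. Members and the 35 lists were chosen with earlier results of these data known. Alternatives were other low-value filters, scalings, thinning, phase, sex, reference and carried-over labels. Procedures were tested on simulated data. No doublet caller was run. Counts of 0 were set against a floor of 3 UMIs. Some genes the study names are not reported here.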

Additional observations from a re-analysis of the deposited data

How the results depend on the processing

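The counts of genes past 2-fold moved with the filter on low values, which changes how many genes are compared. With at least 10 CPM in place of 50, 175 genes were higher and 95 lower in bFAPLs, with at least 100 CPM 35 and 16, and with only 10 UMIs over both sums 729 and 1336. The count between bFAPLs and wFAPLs, 40 genes, became 154, 20 and 928 under the same filters. In male cells alone, 47 bFAPLs, 47 genes were lower and 91 differed from wFAPLs, and bFAPLs were 17.3% of male cells (13.0 to 22.3%). Against bCAPs 73 genes were lower. With a median ratio set to 0, equal weight per cell, thinning, G1 or female cells, the 3 counts stayed within 1.5 times. So did the counts of higher and lower genes with equal weight per cluster and with labels carried over by 15 neighbours, which gave bFAPLs 797 of 5963 cells (13.4%). With own labels hidden, 246 of 279 bFAPLs (88.2%) got theirs back. Leaving out cells with at least 5 Rgs5 UMIs was chosen after seeing the data. The marker ratios kept their sign in all 60 alternatives and lay between 1.25 and 3.58, with 49 inside the counting interval of the value given and 11 outside. Of 910 list counts under alternatives, 127 moved by more than 1.5 times, and many of the others compare 0 with 0. No paired analysis was possible because there is 1 sample per group and the labels carry no replicate numbers. Library, depot and culture cannot be told apart, and a gene with 0 UMIs in bFAPLs may still reach about 0.398 CPM.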
